A study of Mus musculus with 69 samples.

Results

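Maternal separation is an early-life stress in which pups are taken from the dam for hours each day. Its adult trace in wildtype hippocampus was examined here in 17 of the 69 libraries of the series, namely all 10 separated wildtype males and all 7 control wildtype males killed at postnatal day 66 (P66). Separated litters were taken from the dam for 3 h a day at varying hours of the light phase between P1 and P14, whereas control litters were handled only. All pups were weaned at P22 and then left undisturbed until adulthood. The animals came from 2 rounds of breeding, with 6 separated and 3 control animals in cohort 1 and 4 separated and 4 control animals in cohort 2. For comparison, the same rearing contrast was read in 7 separated and 7 control Cdh13 knockout animals at P66, and in 11 separated and 8 control wildtype animals killed at weaning (P22). Cdh13 encodes T-cadherin, a cell adhesion protein without a transmembrane domain, and Cdh13 itself was not analysed here. Rearing was assigned to litters, but the labels name no litters, so every animal was treated as independent and p-values are too small where littermates resemble each other.

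The endoplasmic reticulum (ER) folds secreted and membrane proteins with a set of resident chaperones, and Hspa5 (BiP) is its Hsp70 and the sensor-binding protein of the unfolded protein response. Cytosolic heat-shock proteins do the same work for soluble proteins and are driven by heat-shock factors. The circadian clock is a transcriptional loop in which the Arntl and Clock proteins drive their own repressors (the Per and Cry genes) and output genes such as Dbp and Ciart. Chaperone and clock gene levels both vary over the day in many tissues. The labels give no hour of tissue collection.

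The 17 libraries held 11.5 M to 14.98 M counts (M is 1e+06) over 9930 protein-coding genes of chromosomes 1 to 7 and part of 8. Totals and gene lists cover these genes only. Totals averaged 13.2 ± 1.12 M in separated and 12.7 ± 0.386 M in control animals (SD, n = 10 and 7), a difference of 0.537 M (two-sided exact permutation test, p = 0.245). Levels are given in CPM, counts per 1e+06 counts of the 7001 tested genes, after TMM scaling. Of 35 listed marker genes of the dentate gyrus and CA fields of the hippocampus, the 16 held were all detected. Their summed level was 4447 to 5513 CPM in separated and 4748 to 5200 CPM in control animals. The first principal component of the 17 libraries held 22.8% of the variance and was led by choroid plexus genes such as Tmem72 and Slc4a5. The second held 12.1% and was led by Lcn2.

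No gene changed with separation at an adjusted p under 0.05 (edgeR quasi-likelihood test with Benjamini-Hochberg adjustment over 7001 genes, 31 P66 libraries, cohort as a term), which is 0% of the genes tested. DESeq2 gave 1 gene (Hspa5) and limma-voom 0 in the same design. At an unadjusted p under 0.05 there were 469 genes, or 6.7%, where 350 are expected without any effect. Of these, 187 (2.67%) were higher and 282 (4.03%) lower in separated animals. The median absolute log2 fold change over all genes was 0.05 and the median standard error 0.07. In no gene did the 10 separated and 7 control animals fall into ranges that did not overlap (0%). The 20 genes with the smallest p are therefore described with their values and not as changed, and 10 of them were higher and 10 lower in separated animals.

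Hspa5, Pdia4 and Pdia3, which act in ER protein folding, stood among the 5 smallest p. Hspa5 lies on the plus strand at chr2:34771970-34777547 (ENSMUSG00000026864). Its level in separated animals was 727, 707, 672, 735, 535 and 606 CPM in cohort 1 and 840, 1015, 940 and 872 CPM in cohort 2, against 442, 512 and 550 CPM in cohort 1 controls and 555, 683, 499 and 478 CPM in cohort 2 controls. All 10 separated animals were above the control median, the groups overlapped in cohort 1, and every separated animal of cohort 2 was above every control. The means were 765 ± 150 CPM in separated and 531 ± 77.7 CPM in control animals (SD), a log2 fold change of 0.53 ± 0.109 (SE; edgeR adjusted p = 0.218). Across the alternative analyses Hspa5 ranged between 0.41 and 0.73 on the log2 scale. It passed the threshold with DESeq2 (adjusted p = 0.00658), in an edgeR fit of the 17 wildtype libraries alone (adjusted p = 0.0106), in cohort 2 alone (adjusted p = 0.00381) and without the separated animal 55 of cohort 1 (adjusted p = 0.0326). That animal had the lowest Hspa5 of the separated group (535 CPM), so leaving it out raises the difference. Hspa5 passed in only these 4 of the 29 alternatives.

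Pdia4, a protein disulfide isomerase of the ER lumen (minus strand, chr6:47796141-47813430), had 103, 95.2, 76.8, 101, 84.8 and 85.3 CPM in separated animals of cohort 1 and 111, 141, 135 and 131 CPM in those of cohort 2. Controls had 69.6, 83.1 and 80.4 CPM in cohort 1 and 86.2, 96.2, 76.6 and 70.0 CPM in cohort 2. The 4 separated animals of cohort 2 were again the highest, and the cohort 1 groups overlapped. Its log2 fold change was 0.42 ± 0.105 (edgeR adjusted p = 0.506), and in cohort 2 alone it was 0.66 (adjusted p = 0.0103). Pdia3, the isomerase that works with the lectin chaperones on glycoproteins (plus strand, chr2:121413775-121438687), averaged 509 ± 39.4 CPM in separated and 438 ± 29.6 CPM in control animals (SD, n = 10 and 7). Of the separated animals, 9 of 10 were above the control median, and the one below it had 431 CPM. The log2 fold change of Pdia3 was 0.22 ± 0.0551 (edgeR adjusted p = 0.506), with 0.25 in cohort 2 and 0.23 in cohort 1. Mlec, which binds glucosylated sugar chains on newly made glycoproteins, averaged 399 ± 28.9 CPM in separated and 360 ± 13.4 CPM in control animals, with a log2 fold change of 0.15 ± 0.0476 (edgeR adjusted p = 0.566).

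**Figure D1:**
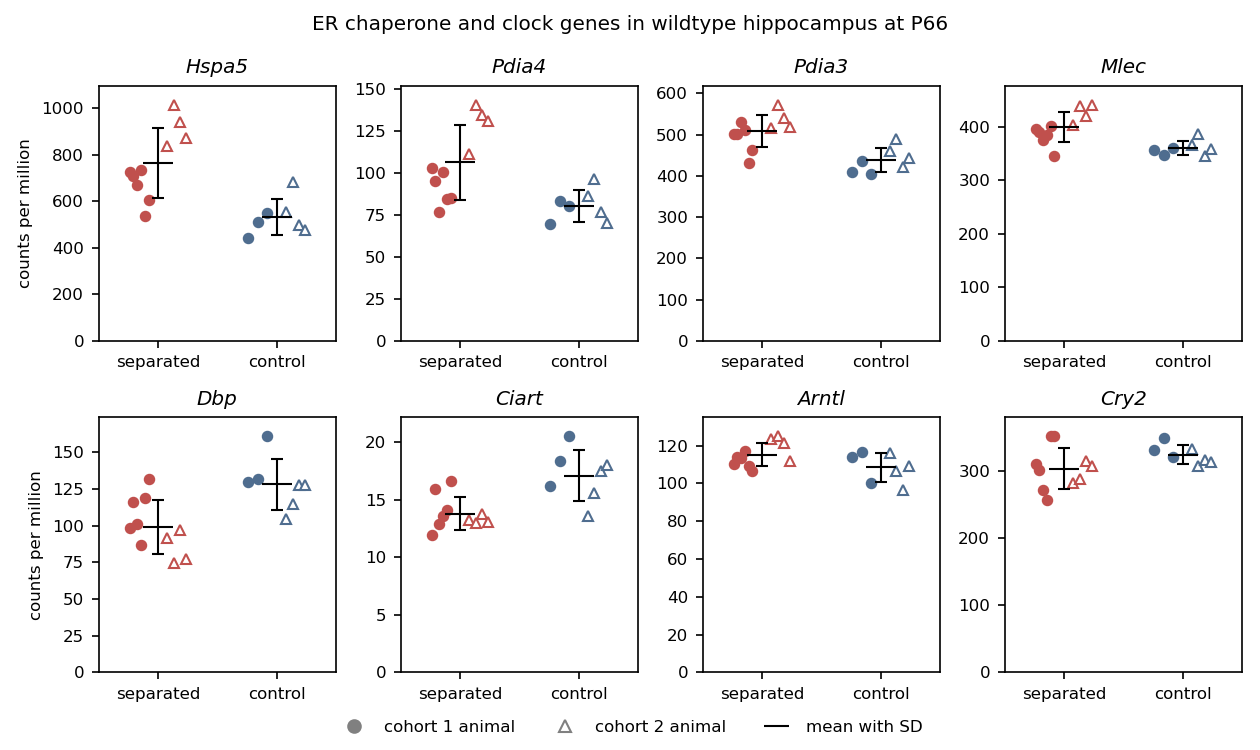
Level of 4 ER folding genes (top) and 4 clock genes (bottom) in CPM on the y axis, for each separated (left) and control (right) wildtype animal at P66; filled circles are cohort 1, open triangles cohort 2, and black bars the mean with SD. The 4 separated cohort 2 animals have the highest Hspa5 values, 840 to 1015 CPM, and the range of Hspa5 in controls is 442 to 683 CPM.

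The promoter of Hspa5 is shown because it holds the ER stress element, the site through which the unfolded protein response acts on this gene. The 250 bases before its RefSeq start (GRCm38.p6, plus strand, chr2:34771840-34772089) read as follows, with the element (CCAAT, 9 bases, CCACG) in capitals.
Hspa5: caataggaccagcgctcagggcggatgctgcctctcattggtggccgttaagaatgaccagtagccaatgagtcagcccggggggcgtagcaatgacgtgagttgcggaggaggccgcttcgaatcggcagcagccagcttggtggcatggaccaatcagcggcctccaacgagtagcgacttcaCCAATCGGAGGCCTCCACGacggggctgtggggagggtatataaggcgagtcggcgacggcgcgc
The element, searched on both strands, occurred in 0.113% of 32851 RefSeq promoters of this length. Its letters were not in these windows of Pdia4, Pdia3, Mlec, Uggt1 or Erp44. A match is a description of the letters and says nothing of binding in these animals.

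No member of the wider ER list passed. Of its 48 genes, 19 were held and tested, and the others, which were not in the records held, remain unknown here. Of the 19 tested members, 13 had a fold change above 0 and 6 below. Their median log2 fold change was 0.04 against 0.00 over all genes, of which 50.1% were above 0. Besides the 4 genes above, Uggt1, the folding sensor that marks glycoproteins for another round (0.09 ± 0.0385), and Erp44, a retention factor of the early secretory pathway (0.12 ± 0.0596), were higher at an unadjusted p under 0.05, which makes 6 of 19 higher and 0 lower. The corresponding shares over all genes were 2.67% and 4.03%, but this list was drawn up with earlier results of these data known and its count is a description. None of the other 13 members, the tested sensor genes among them, reached the unadjusted threshold. The kinase gene Eif2ak3 (PERK) had a log2 fold change of 0.05 ± 0.0376, the sensor gene Atf6 0.05 ± 0.0557, the phosphatase regulator Ppp1r15a (GADD34) -0.08 ± 0.0744 and the stress-induced pseudokinase Trib3 -0.25 ± 0.251 (edgeR adjusted p between 0.842 and 0.891 for the 4 genes). Edem1, Edem2 and Edem3, which deliver misfolded glycoproteins to degradation, had log2 fold changes between -0.05 and 0.04.

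Most cytosolic and mitochondrial chaperone genes were slightly higher in separated animals, none past the test. Of 46 listed genes, 18 were held and tested, and 15 of these were above 0, with a median log2 fold change of 0.08. Dnaja1, an Hsp40 co-chaperone, averaged 709 ± 44.9 CPM in separated and 646 ± 24.3 CPM in control animals (0.14 ± 0.0460). Hsph1, a nucleotide exchange factor of Hsp70, averaged 882 ± 44.5 CPM in separated and 809 ± 55.5 CPM in control animals (0.12 ± 0.0486). The small heat-shock protein gene Hspb1 had the largest fold change of the list, with 14.5 ± 3.09 CPM in separated and 11.8 ± 2.94 CPM in control animals (0.32 ± 0.141). The co-chaperone gene Dnajb6 (0.08 ± 0.0339), the Hsp90-associated Cacybp (0.15 ± 0.0644) and the mitochondrial chaperonin gene Hspd1 (0.09 ± 0.0424) were the other members higher at an unadjusted p under 0.05, 6 of 18 in all and none lower (edgeR adjusted p between 0.566 and 0.743), beside 2.67% of all genes higher and 4.03% lower. This list too was drawn up with earlier results known, and its count is a description. Heat-shock elements of 3 inverted GAA repeats, present in 0.466% of all promoters, were found before the starts of Dnajb6 and Hspd1 and in no other of these 6 genes.

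Of 28 listed clock genes, 13 were held and tested, and the others were not in the records held. Among the 13, the outputs Dbp and Ciart were lower, and the core genes differed little over both cohorts together. Dbp, a transcription factor that acts on D-box sites, had 98.2, 116, 101, 86.7, 119 and 132 CPM in separated animals of cohort 1 and 91.2, 74.8, 97.2 and 77.3 CPM in those of cohort 2. Controls had 130, 132 and 161 CPM in cohort 1 and 104, 115, 128 and 128 CPM in cohort 2. In cohort 2 every separated animal was below every control, and in cohort 1 a single separated animal, with 132 CPM, reached the control range. The log2 fold change of Dbp was -0.37 ± 0.126 (edgeR adjusted p = 0.566), and over the alternatives it lay between -0.48 and -0.30 without passing, with a smallest adjusted p of 0.0505 in cohort 2 alone. Ciart, a repressor of the Clock and Arntl proteins, averaged 13.8 ± 1.44 CPM in separated and 17.1 ± 2.24 CPM in control animals (SD, n = 10 and 7), and all 10 separated animals were below the control median. Its log2 fold change was -0.30 ± 0.107 (edgeR adjusted p = 0.601).

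Arntl, the activator of the loop, averaged 115 ± 6.32 CPM in separated and 108 ± 7.87 CPM in control animals (0.09 ± 0.0489). The repressor gene Cry2 averaged 304 ± 31.1 CPM in separated and 325 ± 14.2 CPM in control animals (-0.10 ± 0.0559). Both groups overlapped widely for these 2 genes, and Arntl was at 0.17 in cohort 2 and 0.02 in cohort 1. Of the other members, Npas2 (0.15 ± 0.0929), Per3 (0.11 ± 0.0763) and Per2 (0.10 ± 0.0684) were above 0, and the 13 tested clock genes split into 7 above and 6 below 0 with a median of 0.00. Per3 was at 0.18 without control 6 of cohort 1, at 0.24 in cohort 2 and at -0.02 in cohort 1 alone. Per2 was at 0.21 in cohort 2 and 0.01 in cohort 1, and Npas2 at 0.05 and 0.30. Without the 2 separated animals of lowest choroid plexus level (below) the split of the 13 clock genes was 6 above and 7 below, with a median of -0.05. No clock gene passed the adjusted threshold, and Dbp and Ciart were the 2 lower at an unadjusted p under 0.05.

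The promoter of Ciart is shown because it is built around E-boxes, the sites of the Clock and Arntl proteins. The 250 bases before its RefSeq start (GRCm38.p6, minus strand, chr3:95882229-95882478) are given with each E-box (CACGTG, which reads alike on both strands) in capitals.
Ciart: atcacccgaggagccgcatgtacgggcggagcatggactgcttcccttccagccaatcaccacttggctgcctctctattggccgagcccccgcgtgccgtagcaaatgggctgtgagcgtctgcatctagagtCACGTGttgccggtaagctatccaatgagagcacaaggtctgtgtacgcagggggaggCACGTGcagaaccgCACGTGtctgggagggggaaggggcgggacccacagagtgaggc
At least 1 E-box occurred in 6.02% of all promoters of this length. Among the heat-shock genes above, 1 window each of Hspd1 and Hsph1 also held an E-box. Dbp, Arntl, Cry2 and Npas2 held no E-box in this window. They also held no D-box, the site of Dbp itself, whereas Per3 held 2 of them (TTATGTAA), a motif that, together with TTATGCAA and on either strand, occurred in 1.5% of promoters. The cyclic AMP element TGACGTCA occurred in 1.55% of all promoters and in none of the genes searched.

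Among the separated animals, Hspa5 was high where Dbp was low. Over these 10 animals Pearson's r of log2 CPM was -0.81 (permutation p = 0.00504, adjusted over 6 relations 0.0302) and Spearman's rho -0.89 (permutation p = 0.00119, adjusted 0.00714). Leaving out the 2 animals farthest from the median of Dbp gave r = -0.69. In the 7 controls r was -0.29 (exact permutation p = 0.516, adjusted 0.971) and rho -0.36 (exact permutation p = 0.444), but without the 2 controls farthest from the median of Dbp (6 of cohort 1 and 19 of cohort 2) r was -0.91. The r in controls therefore depended on which of these few animals were included. The value without 2 controls was not tested, and neither was the difference in r between the groups. The cohorts differ in both genes, since the cohort 2 separated animals had the 4 highest Hspa5 values and 4 of the 5 lowest Dbp values. Within the 6 separated animals of cohort 1, r was -0.70 (exact permutation p = 0.115) and rho -0.89 (exact permutation p = 0.0333). With the cohort means subtracted and pairings permuted within cohort, r over the 10 animals was -0.61 (exact permutation p = 0.0931). The 4 animals of cohort 2 were too few for a test. The relation as measured by r therefore did not hold at the 0.05 level within cohorts. No relation of Hspa5 or Dbp with the choroid plexus score passed in either group (r between -0.33 and -0.01, permutation p adjusted over 6 relations 0.971 in each). These values moved when 2 animals were left out. Without the 2 animals farthest from the median score, r with Dbp was 0.43 in separated animals (without 42 of cohort 2 and 57 of cohort 1) and -0.84 in controls (without 58 and 86 of cohort 2), and r with Hspa5 was -0.16 in separated animals and 0.15 in controls.

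**Figure D2:**
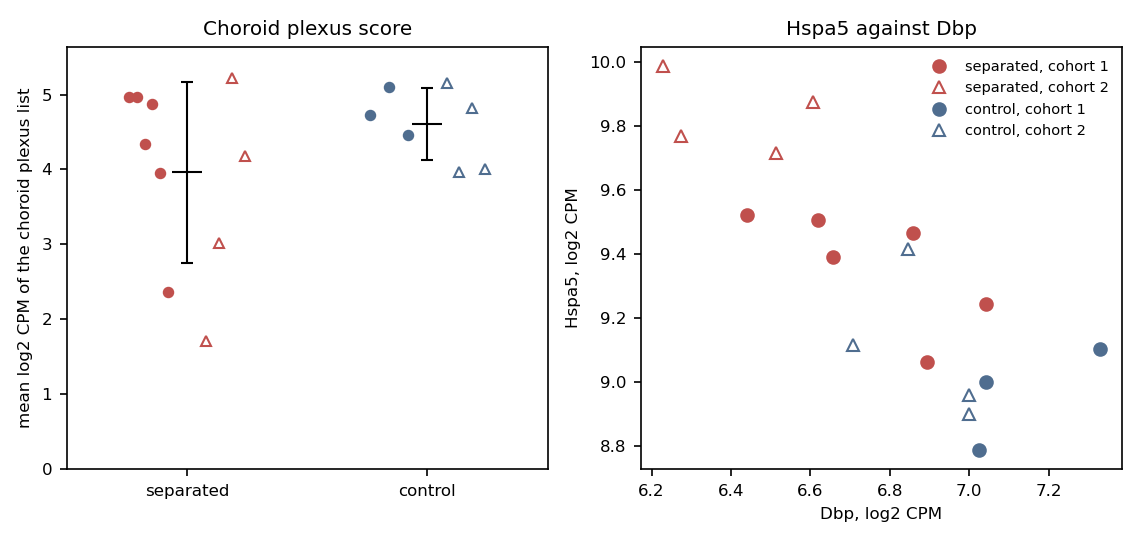
Left, choroid plexus score (mean log2 CPM of 16 genes, y axis) of each separated and control wildtype animal, with the mean and SD in black; right, Hspa5 against Dbp, both in log2 CPM, with colour for rearing and symbol for cohort. The separated animals 42 of cohort 2 and 57 of cohort 1 have the lowest scores, 1.71 and 2.36, and Hspa5 is high where Dbp is low among separated animals.

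Among the other genes of smallest p were receptors of immune and lining cells. Fcgr2b, the inhibitory receptor for antibody Fc parts on microglia and other myeloid cells, averaged 7.08 ± 0.938 CPM in separated and 9.06 ± 1.28 CPM in control animals (SD, n = 10 and 7), with all 10 separated animals below the control median (-0.36 ± 0.0903, edgeR adjusted p = 0.506). In bulk tissue, fewer cells of a type and less RNA per cell cannot be told apart. Cubn, the endocytic receptor cubilin, averaged 3.22 ± 0.655 CPM in separated and 5.599 ± 2.74 CPM in control animals (-0.81 ± 0.217). Without control 58 of cohort 1, which had 11.02 CPM, the log2 fold change of Cubn was -0.50 (edgeR adjusted p = 0.892). Itgad, an integrin subunit of leukocytes, went the other way with 19.6 ± 2.10 CPM in separated and 16.7 ± 0.976 CPM in control animals (0.23 ± 0.0681). Tas1r3, a subunit of the sweet and umami taste receptors, had low levels, with 0.671 ± 0.245 CPM in separated and 1.21 ± 0.137 CPM in control animals (-0.86 ± 0.216). Slc10a4, a vesicle protein of cholinergic and monoaminergic neurons, had the largest fold change of the 20 genes (-1.13 ± 0.306), but 1 control of cohort 1 stood at 9.16 CPM where the other controls had 1.20 to 2.79 CPM and the separated animals 0.861 to 1.90 CPM. Without that control the log2 fold change of Slc10a4 was -0.44 (edgeR adjusted p = 0.722).

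The rest of the 20 genes are given next. Eef2k, the kinase that slows translation by phosphorylating elongation factor eEF2, averaged 111 ± 4.002 CPM in separated and 123 ± 7.66 CPM in control animals, and all 10 separated animals were below the control median (-0.15 ± 0.0401, edgeR adjusted p = 0.521). The zinc finger gene Zfp46 averaged 103 ± 12.1 CPM in separated and 128 ± 10.9 CPM in control animals (-0.31 ± 0.0834), and in each cohort every separated animal was below every control. Another zinc finger gene, Zfp956 (-0.15 ± 0.0399), mitochondrial isocitrate dehydrogenase Idh2 (-0.19 ± 0.0513), the receptor gene Gpr146 (-0.19 ± 0.0506) and the microfibril gene Fbn1 (-0.34 ± 0.0958) were also lower. Higher were the histone acetyltransferase gene Hat1 (0.18 ± 0.0481), the ER prolyl isomerase gene Fkbp14 (0.20 ± 0.0547), the mitochondrial exonuclease gene Mgme1 (0.22 ± 0.0626), Phospho2 (0.17 ± 0.0496), the Golgi tethering gene Cog6 (0.11 ± 0.0306) and the chaperonin-like gene Mkks (0.22 ± 0.0639). Adjusted p-values of the 20 genes lay between 0.218 and 0.566 in edgeR. In the fit of the 17 wildtype libraries alone 4 genes passed: Zfp46 (adjusted p = 0.000763) and Eef2k (adjusted p = 0.0453) lower, and Hspa5 (adjusted p = 0.0106) and Pdia3 (adjusted p = 0.0453) higher in separated animals. The typical variation between animals of a group was 9.89% of the level in that fit, 11.2% in the fit of 31 libraries and 12.6% in the 14 knockout libraries.

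Most of these genes had the same direction in the knockout animals. Of the 20 genes, 17 had the same sign of fold change in knockout animals, beside 52.8% of all genes. Knockout animals entered the wildtype contrast through the shared spread and the cohort term. Hspa5 had a log2 fold change of 0.37 ± 0.119 in knockouts, Pdia4 0.33 ± 0.115, Pdia3 0.20 ± 0.0602 and Zfp46 -0.29 ± 0.0915. Other genes of the same sign were close to 0 in knockouts, such as Fcgr2b (-0.01 ± 0.0996), Itgad (0.03 ± 0.0741) and Cog6 (0.04 ± 0.0336). Dbp was at -0.64 and Ciart at -0.62, and 7 of the 13 clock genes were above 0 in wildtype and 1 of 13 in knockout animals. Tas1r3 (0.64 ± 0.258 in knockouts) and Hat1 (-0.05 ± 0.0526) were among the 3 genes with the other sign.

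**Figure D3:**
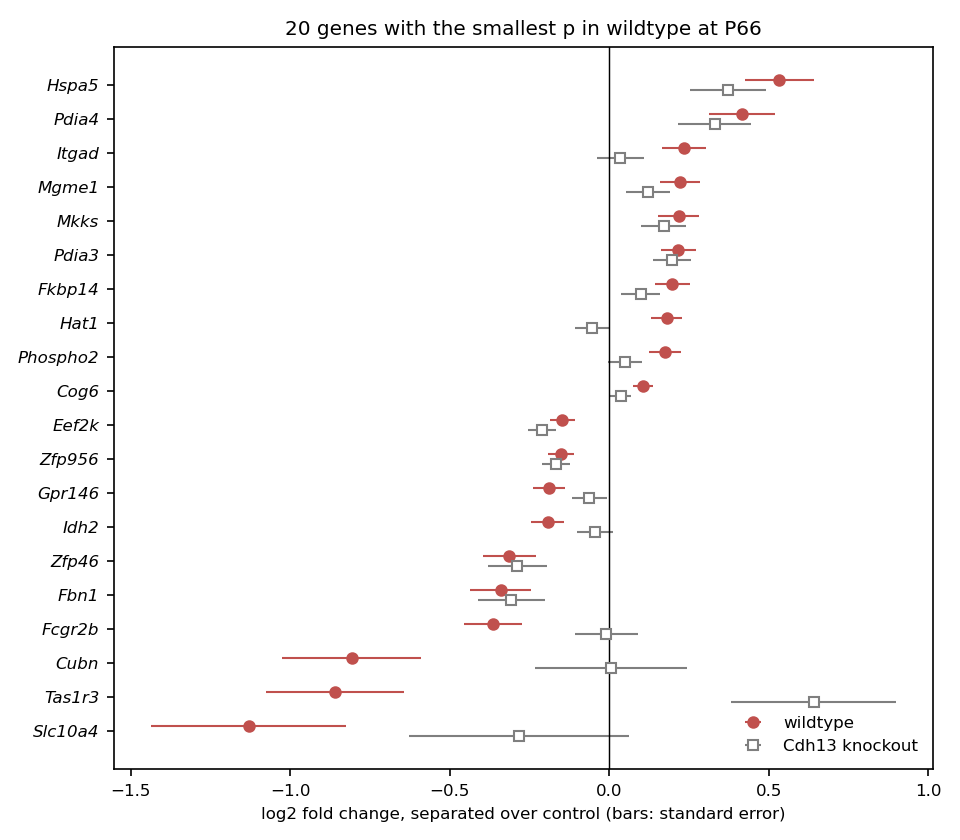
Log2 fold change, separated over control, with its standard error (x axis) for the 20 genes with the smallest p in wildtype (y axis), in wildtype (filled circles) and Cdh13 knockout animals (open squares) at P66. Hspa5, Pdia4 and Pdia3 lie to the right of 0 in both genotypes, and Tas1r3 is at -0.86 in wildtype and 0.64 in knockout animals.

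No gene differed between the genotypes in its response (edgeR interaction test, 0 of 7001 at an adjusted p under 0.05, 317 at an unadjusted p under 0.05, 0 by DESeq2). The difference in log2 fold change, wildtype minus knockout, was 0.16 ± 0.159 for Hspa5 (edgeR adjusted p = 0.795), 0.09 ± 0.154 for Pdia4 and 0.02 ± 0.0804 for Pdia3. The 5 smallest p of this test belonged to Tas1r3 (-1.50 ± 0.331, edgeR adjusted p = 0.600), Acot11 (-0.37), Vangl1 (-0.56), the clock gene Per3 (0.41 ± 0.112, adjusted p = 0.795) and Lpcat3 (-0.24). Members of other groups leaned apart without passing. The SR splicing factors and Clk kinases had 10 of 17 members above 0 in wildtype and 0 of 17 in knockout animals, with medians of 0.04 and -0.15. Cytosolic ribosomal protein genes had 11 of 34 above 0 in wildtype (median -0.01) and 34 of 34 in knockout animals (median 0.08). In wildtype the cohorts were opposite, with medians of -0.07 in cohort 1 and 0.07 in cohort 2.

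Hspa5, Pdia4 and Pdia3, chosen by their p at P66, were closer to 0 at weaning. Some other ER list members were farther from 0, such as Edem2 (-0.05 at P66 and 0.13 at P22). Of the 19 ER list members, 11 were above 0 at P22, with a median of 0.003. Hspa5 had a log2 fold change of 0.53 ± 0.109 at P66 and of -0.01 ± 0.1104 in wildtype animals at P22. Pdia4 had 0.42 ± 0.105 at P66 and 0.06 ± 0.101 at P22, and Pdia3 0.22 ± 0.0551 at P66 and 0.02 ± 0.0527 at P22. Of the 20 genes, 12 had the P66 sign at P22, beside 44% of all genes tested at both ages. The P66 minus P22 difference was 0.57 ± 0.161 for Hspa5 (edgeR adjusted p = 0.419), and no gene passed this test (0 of 7131, 606 at an unadjusted p under 0.05, 0 by DESeq2). The smallest p values were those of Slc10a4 (-1.48 ± 0.333, edgeR adjusted p = 0.265), Srrm4, a neuronal splicing factor (0.35 ± 0.0854), G6pd2 (-1.13), Tas1r3 (-1.22) and the chromatin remodeller Chd2 (0.27). Genes of mature oligodendrocytes and myelin were above 0 in 9 of 13 cases at P66 with a median of 0.06, and in 13 of 13 at P22 with a median of 0.32. At P66 the cohorts differed, with 11 of 13 of these genes above 0 in cohort 1 (median 0.12) and 5 of 13 in cohort 2 (median -0.06). Choroid plexus genes were above 0 in 0 of 16 cases at P66 and in 14 of 16 at P22.

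Cell type lists differed most for the linings of the ventricle, which border the hippocampus. All 16 tested choroid plexus genes were lower in separated animals, with a median log2 fold change of -0.38, and none passed. Their summed level had a median of 505 CPM (254 to 838) in separated animals and 645 CPM (434 to 852) in control animals. The groups overlapped almost fully, and the separated animals 42 of cohort 2 and 57 of cohort 1 were the lowest. Without these 2 animals 15 of 16 were lower and the median was -0.15. Msx1, a homeobox factor (-0.37 ± 0.239), and Kl, the FGF co-receptor klotho (-0.36 ± 0.305), are examples (edgeR adjusted p = 0.815 and 0.856). Kl was at -0.22 without control 19 of cohort 2. Of 8 ependymal genes, 7 were lower, among them Rarres2 (chemerin), with 11.9 ± 2.98 CPM in separated and 16.5 ± 3.15 CPM in control animals (-0.50 ± 0.172, edgeR adjusted p = 0.577), and Tmem212 (-0.67 ± 0.281). The part of this tissue in the other differences was examined with the choroid plexus score as a covariate, under which Hspa5 had a log2 fold change of 0.55, Pdia4 0.44, Dbp -0.37 and Rarres2 -0.39.

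Microglial genes (19 records of 18 genes) were below 0 in 15 of 19 cases with a median of -0.08, led by Siglech (-0.17 ± 0.0830), and endothelial genes in 10 of 13 with a median of -0.05. By cohort, endothelial genes were above 0 in 4 of 13 in cohort 1 and in 7 of 13 in cohort 2. Astrocyte genes were divided evenly (4 of 8 above 0, median 0.01), as were interneuron genes (10 of 19, median 0.00). Meningeal and fibroblast matrix genes were below 0 in 14 of 20, led by Fbn1, while Fbln2, a matrix fibulin, was at 0.31 ± 0.139. These matrix genes were above 0 in 11 of 20 in cohort 1 (median 0.03) and in 4 of 20 in cohort 2 (median -0.25). Immediate early genes, which follow recent neuronal activity, were above 0 in 10 of 14 with a median of 0.05, led by Klf4 (11.05 ± 1.39 CPM in separated and 8.27 ± 1.61 CPM in control animals, 0.39 ± 0.146, edgeR adjusted p = 0.614) and Fosl2 (0.24 ± 0.114). Glucocorticoid-induced genes, which report stress hormone action, were above 0 in 3 of 8 (7 of 8 in cohort 1 and 3 of 8 in cohort 2). At an unadjusted p under 0.05, 3 of 8 were lower (Sult1a1, Map3k6 and Lcn2), beside 4.03% of all genes. This list was drawn up with earlier results known. Stress axis and oxytocin genes were above 0 in 7 of 8 with a median of 0.09 (3 of 8 in cohort 1 and 7 of 8 in cohort 2). The member of smallest p, Crhr2, was lower (-0.38 ± 0.203). The oxytocin receptor gene Oxtr was at 0.16 ± 0.0998, and at 0.10 without separated animal 64 of cohort 2. Glutamate receptor genes (8 of 11 above 0, median 0.09) and GABA receptor genes (6 of 10, median 0.03) held no member past the adjusted threshold. The cohorts differed in both lists. Glutamate receptor genes were above 0 in 8 of 11 in cohort 1 (median 0.15) and in 3 of 11 in cohort 2 (median -0.02). GABA receptor genes were above 0 in 7 of 10 in cohort 1 (median 0.07) and in 4 of 10 in cohort 2 (median -0.02). Every list median kept its sign when RLE size factors replaced TMM, which moved each by less than 0.01.

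**Figure D4:**
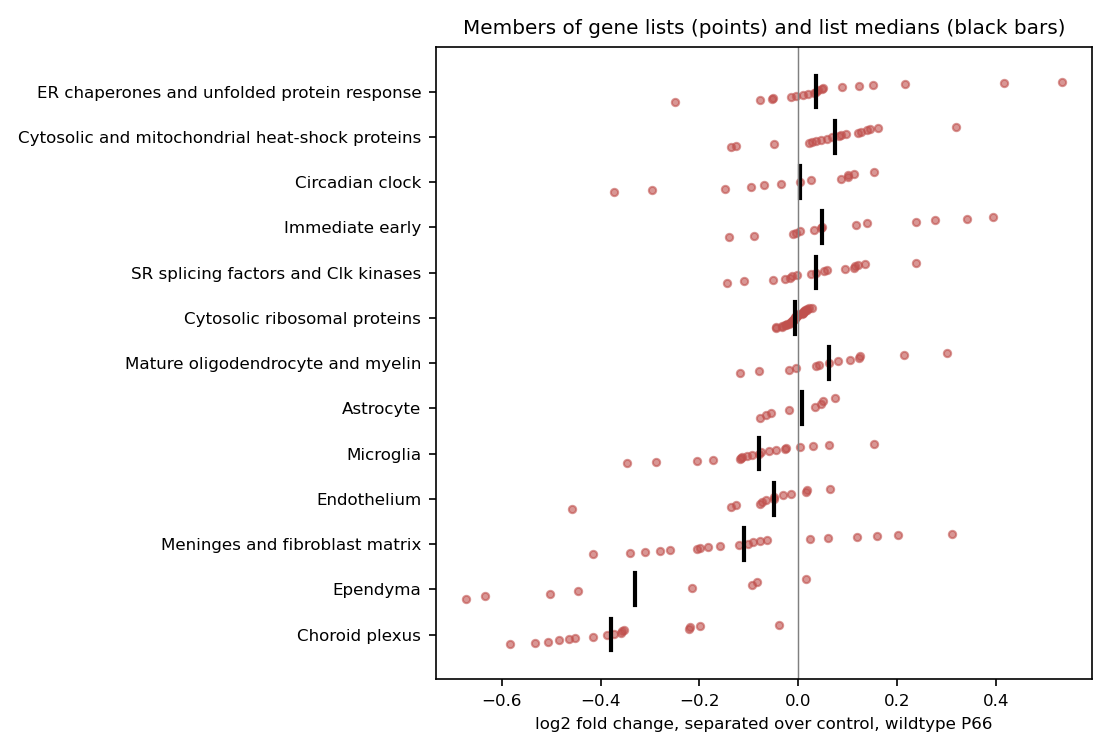
Log2 fold change, separated over control, in wildtype at P66 (x axis) for the tested members of 13 gene lists (y axis); each point is a gene and the black bar the list median. The choroid plexus median is at -0.38 with all 16 members below 0, and the medians of the chaperone lists are 0.04 and 0.08.

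The breeding cohorts gave the same sign for all 20 genes, beside 53.9% of all genes, where the 20 were chosen on both cohorts together. The size was often unequal. Hspa5 was at 0.73 ± 0.105 in cohort 2 and 0.40 ± 0.107 in cohort 1. Pdia4 was at 0.65 ± 0.106 in cohort 2 and 0.23 ± 0.108 in cohort 1, and Fbn1 at -0.59 ± 0.112 in cohort 2 and -0.15 in cohort 1. In a fit with a term for each group and cohort, 14 genes passed in cohort 2, and 0 in cohort 1, where 319 had an unadjusted p under 0.05. With each cohort fitted alone the counts were 11 genes in cohort 2 (3 higher, 8 lower) and 0 in cohort 1. The difference between cohorts, tested directly, passed for no gene in edgeR (299 at an unadjusted p under 0.05) and for Lcn2 and Vwf in DESeq2.

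**Figure D5:**
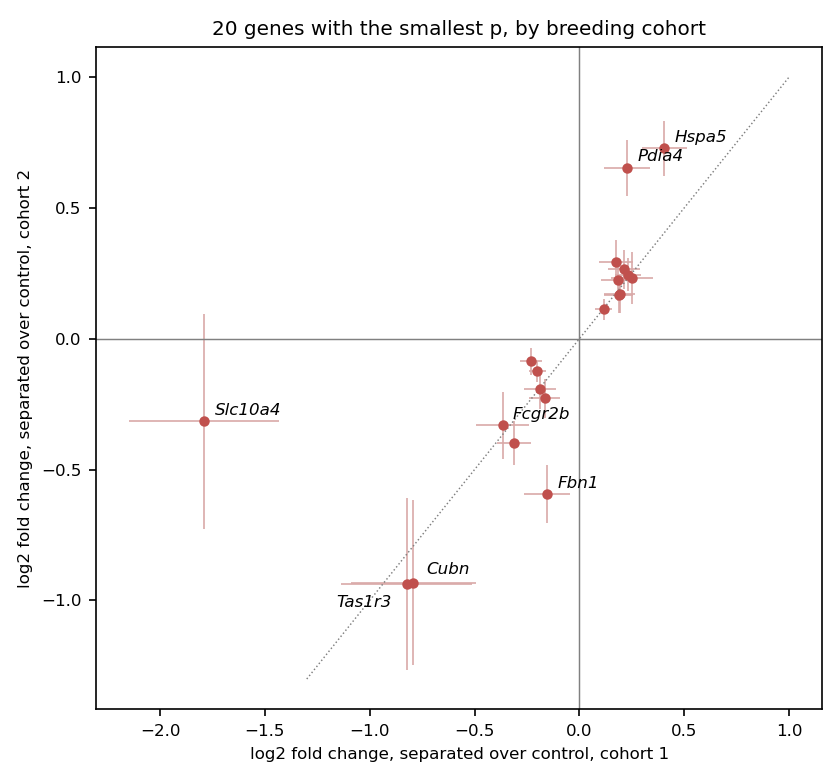
Log2 fold change, separated over control, in cohort 1 (x axis) and cohort 2 (y axis) for the 20 genes with the smallest p in wildtype at P66, with standard errors; the dotted line marks equal values. All 20 points have the same sign in both cohorts, and Hspa5 and Pdia4 lie above the line at 0.73 and 0.65 in cohort 2.

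Lcn2 (lipocalin 2), an inflammation-induced iron-binding protein, had opposite directions in the cohorts. In cohort 2 it had 0.144, 0.358, 0.365 and 0.963 CPM in separated animals and 22.9, 22.0, 0.792 and 18.8 CPM in controls. In cohort 1 it had 9.55, 12.3, 4.70, 1.35, 2.95 and 1.09 CPM in separated animals and 0.411, 0.693 and 0.313 CPM in controls. The 3 controls with high Lcn2 (19, 58 and 86 of cohort 2) also had the highest levels of Vwf, the endothelial von Willebrand factor gene, at 54.6, 59.7 and 44.9 CPM, where separated animals had 18.96 to 33.6 CPM and the other controls 17.9 to 27.4 CPM. The cohort 2 minus cohort 1 difference was -8.65 ± 1.58 for Lcn2 (edgeR adjusted p = 0.0561) and -1.38 ± 0.308 for Vwf (edgeR adjusted p = 0.394). Insig1, which holds back cholesterol synthesis, was at -0.48 in cohort 2 and 0.00 in cohort 1 (difference -0.48 ± 0.112, edgeR adjusted p = 0.394). It had 112, 107, 111 and 103 CPM in the separated animals of cohort 2 and 138, 153, 161 and 153 CPM in its controls, without overlap. Cytosolic ribosomal protein genes were above 0 in 34 of 34 cases in cohort 2 (median 0.07) and in 0 of 34 in cohort 1 (median -0.07). The cohorts were separate rounds of breeding, and what else differed between them is not given in the sources used here.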

How the data were processed

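Hippocampal RNA of single male mice was sequenced, and the authors deposited raw read counts per gene. The tools named by the submitters' processing notes are limma 3.34.9, edgeR, cutadapt 1.16 and FastQC 0.11.4. No aligner, counter or genome build is named there. Of the gene identifiers, 99.55% occur in GENCODE M21 and 96.5% of those have its GRCm38 coordinates. The 9930 complete records held (chromosomes 1 to 7 and 189 genes of chromosome 8) were used; 1 broken record was left out, and other genes were not analysed here. Whether counting used strand is not given in the sources used here, so reads of overlapping genes cannot be told apart.

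Genes were kept by filterByExpr (at least 10 counts in enough libraries, 15 in all), scaled by TMM and tested by edgeR 4.0.16 quasi-likelihood (R 4.3.3) with terms for each of the 4 P66 groups and for cohort over 31 libraries, and Benjamini-Hochberg adjustment (threshold 0.05). DESeq2 1.42.0 and limma-voom (limma 3.58.1) were alternatives, with RLE scaling, other filters, other sets of libraries and each library left out. CPM values are TMM-scaled over the counts of the tested genes, and log2 CPM has a prior count of 2. The step was also run on simulated counts that held no cohort or litter effect, so that run gives no power or error rate for these data. Libraries of a group differed beyond counting noise (chi-square per degree of freedom 3.98 to 29.2 over 66 pairs).

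Named are the 20 genes with the smallest p, since fewer than 10 passed, up to 4 members per list in order of p, any tested ER, heat-shock or clock gene, and the 5 smallest p of each difference test. Members and lists were chosen with earlier results of these data known. Promoters are RefSeq's; 18 of 19 genes matched.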

Additional observations from a re-analysis of the deposited data

Results flagged for a closer look

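In 8 of 156 groups of values, 1 animal lay far from the others by Dixon's criterion, and chance alone gives about 1 group in 20. Slc10a4 stood at 9.16 CPM in control animal 6 of cohort 1, where the other controls had 1.20 to 2.79 CPM. The same animal had the highest Per3 of the controls, 172 CPM beside 130 to 140 CPM. Control animal 58 of cohort 2 had the highest Hspb1 (18.0 CPM, others 9.12 to 12.2 CPM) and the highest Itih2 (12.8 CPM, others 3.96 to 7.24 CPM), and also the highest control value of Hspa5 (683 CPM). Dnajb6 was highest in control animal 15 of cohort 1 (351 CPM, others 326 to 336 CPM), and Creb1 lowest in control animal 58 of cohort 1 (81.8 CPM, others 106 to 118 CPM). Among separated animals, Cubn was lowest in animal 55 of cohort 2 (1.65 CPM, others 2.84 to 3.79 CPM) and Ndufb2 highest in animal 66 of cohort 2 (162 CPM, others 143 to 150 CPM).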

How the results depend on the processing

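The count of genes past the threshold was 0 under limma-voom, RLE scaling, no filter, a filter of 1 CPM in 7 libraries, no cohort term, all 69 libraries, cohort 1 alone, the choroid plexus covariate, without separated animals 57 of cohort 1 and 42 of cohort 2, and at an adjusted p under 0.1. It was 1 with DESeq2 (Hspa5), 4 with the 17 wildtype libraries alone and 11 with cohort 2 alone, and 0 to 1 when single animals were left out (1, Hspa5, without separated animal 55 of cohort 1). The cause was not tested. The difference between cohorts gave 2 genes with DESeq2, and the other difference tests gave 0 throughout. Of 2204 gene results (76 genes, 29 alternatives), 2198 kept their direction. The exceptions were, in cohort 1 alone, Per3 (-0.0164), Sult1a1 (0.0365), Lcn2 (3.48), Insig1 (0.00149) and Vwf (0.31), and with the choroid plexus covariate, Kl (0.0243). The correlation of Hspa5 with Dbp in separated animals (r = -0.83 with RLE) was -0.70 in cohort 1 (exact permutation p = 0.115) and -0.61 with cohort means subtracted (exact permutation p = 0.0931), both chosen after seeing the data. No paired analysis was possible because animal numbers run separately within each cohort and rearing group. Genes near 1 CPM, such as Tas1r3, rest on few counts (for Tas1r3, 4 to 14 in separated and 14 to 18 in control animals per library), and littermates could not be identified.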

Other observations

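Genes of neighbouring brain regions varied between single animals more than between the rearing groups. Striatal marker genes summed to 188 to 523 CPM (median 245) in separated and 190 to 342 CPM (median 254) in control animals, with animal 30 of cohort 1 the highest. Thalamus and habenula genes summed to 309 to 419 CPM (median 382) in separated and 302 to 463 CPM (median 375) in control animals. Myelin genes, which are abundant in the fibre tracts beside the hippocampus, summed to 1550 to 2734 CPM (median 1903) in separated and 1496 to 2398 CPM (median 1897) in control animals.

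Genes of oxidative phosphorylation encoded in the nucleus were above 0 in 21 of 38 cases, with a median of 0.00. The cohorts were opposite, with 10 of 38 above 0 in cohort 1 (median -0.04) and 30 of 38 in cohort 2 (median 0.04). Ndufb2, a subunit of complex I, was above the control median in 10 of 10 separated animals, with 148 ± 5.603 CPM in separated and 139 ± 5.11 CPM in control animals (SD, n = 10 and 7; log2 fold change 0.09 ± 0.0328, edgeR adjusted p = 0.614).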
